A study of Homo sapiens with 9 samples.

Results

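Transcription factors of the lung epithelial lineage were followed in HCC827 cells after depletion of CBX5. The set was 10 genes chosen by name, NKX2-1, FOXA1, FOXA2, GATA6, SOX2, SOX9, KLF5, ELF3, EHF and GRHL2, out of 60675 gene rows in the count table. All 10 had a row, 7 had counts, and 6 passed the filter on low counts, against 13264 genes in all. HCC827 is an established human lung adenocarcinoma line with an activating EGFR mutation. The cells stably expressed hairpin G1 against CBX5, hairpin G7 against CBX5, or a non-silencing control hairpin (labelled NS), with 3 libraries each and 9 in all. CBX5 encodes heterochromatin protein HP1 alpha. All groups derive from the same line, and the labels do not say whether replicates came from separate transductions, so p-values measure the spread between these libraries, which may be technical.

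Lineage transcription factors hold an epithelial cell to its identity by binding the enhancers of the genes that cell type uses. NKX2-1, a homeodomain factor, specifies the lung and drives surfactant genes, and pathologists use it as a marker of lung adenocarcinoma. FOXA1 and FOXA2 are forkhead pioneer factors that open chromatin for it, and GATA6 is a zinc finger factor of endoderm. In the developing mouse lung, SOX2 marks the proximal airway and SOX9 the distal tip. KLF5 is a Krüppel-like factor of proliferating epithelium, ELF3 and EHF are ETS factors with expression largely restricted to epithelia, and GRHL2, a grainyhead factor, activates junction genes such as CDH1.

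Library totals ran from 16523561 to 19339887 counts in G1 cells, from 15781878 to 22372353 in G7 cells and from 12701561 to 16030488 in control cells. CBX5 (ENSG00000094916) averaged 142 ± 0.595 CPM in G1 cells, 203 ± 1.54 CPM in G7 cells and 369 ± 8.11 CPM in control cells (SD, n = 3 each). CPM values are counts scaled to a common library size, here with edgeR's TMM factors. One library, replicate 3 of G7, was unlike its group: the chi-square statistic of its counts, divided by degrees of freedom, was 22.6 and 17.9 when set against replicates 1 and 2, and 1.46 between replicates 1 and 2. It also had the highest share of mitochondrially encoded counts, 19.8%, against 13.4% to 17.7% in the other libraries. Calls with G7 against control that changed without this library are given both ways for the factors and the gene lists. Changes of sign are given for the factors, and not for every uncalled gene of the lists. The labels name no processing batch. In bulk RNA, fewer cells of a kind and less RNA per cell cannot be told apart.

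Promoter sequences of the 4 members compared most closely below are shown first. These are 3 members that were lower in G1 cells, ELF3, KLF5 and FOXA1, and EHF, an ETS factor like ELF3 that was not called. Each RefSeq promoter (GRCh38.p14) runs 5′ to 3′ from 250 bases before to 50 bases after the gene start. For KLF5 and EHF, which have 2 listed starts, the downstream one was taken. Capitals mark matches on either strand to TATAAA for the TATA box, GGGCGG for the GC box, CNGGAA for the core of ETS sites (N being any base), TGTTTAC for forkhead sites, AGATAA for GATA sites, ACAATG for SOX sites or AACNGGTT for grainyhead sites, and no 2 marked matches overlap.
ELF3, chr1:202010337-202010636 (+ strand): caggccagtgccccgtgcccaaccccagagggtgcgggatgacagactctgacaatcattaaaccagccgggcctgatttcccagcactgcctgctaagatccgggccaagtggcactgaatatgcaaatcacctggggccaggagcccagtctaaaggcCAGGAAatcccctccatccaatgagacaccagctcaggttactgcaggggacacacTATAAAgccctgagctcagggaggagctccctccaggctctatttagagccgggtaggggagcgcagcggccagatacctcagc
KLF5, chr13:73058755-73059054 (+ strand): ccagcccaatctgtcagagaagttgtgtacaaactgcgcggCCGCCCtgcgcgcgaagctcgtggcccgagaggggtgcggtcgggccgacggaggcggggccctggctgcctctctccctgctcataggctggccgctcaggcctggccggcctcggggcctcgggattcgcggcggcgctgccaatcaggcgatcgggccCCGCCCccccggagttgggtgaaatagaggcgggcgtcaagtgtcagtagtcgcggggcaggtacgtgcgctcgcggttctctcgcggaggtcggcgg
FOXA1, chr14:37595200-37595499 (- strand): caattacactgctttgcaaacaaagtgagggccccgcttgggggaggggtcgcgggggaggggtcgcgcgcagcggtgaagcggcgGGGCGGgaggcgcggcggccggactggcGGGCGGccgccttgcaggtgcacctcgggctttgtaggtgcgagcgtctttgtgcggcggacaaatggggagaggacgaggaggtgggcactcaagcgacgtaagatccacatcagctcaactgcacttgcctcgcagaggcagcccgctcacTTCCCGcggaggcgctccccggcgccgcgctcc
EHF, chr11:34632316-34632615 (+ strand): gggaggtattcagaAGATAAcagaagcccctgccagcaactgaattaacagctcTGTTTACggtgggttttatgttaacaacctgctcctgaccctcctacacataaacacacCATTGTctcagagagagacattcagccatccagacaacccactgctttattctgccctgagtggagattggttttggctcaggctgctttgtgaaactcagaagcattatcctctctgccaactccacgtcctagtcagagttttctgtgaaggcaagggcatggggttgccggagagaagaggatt

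The ELF3 window held a TATA box starting 34 bases before the gene start, at position -34, and an ETS core at position -90. A TATA box occurs in 11.5% of 35116 RefSeq promoters of this length, and an ETS core in 62%. The KLF5 window held 2 GC boxes, at -209 and -48, and the FOXA1 window held 2 GC boxes, at -164 and -136, and an ETS core at position 18. A GC box occurs in 45% of promoters. The EHF window held a forkhead match at -196, which 3.42% of promoters hold, a GATA match at -236 (10.3%) and a SOX match at -137 (10.8%). GC content was 59% for ELF3, 71.3% for KLF5, 69.3% for FOXA1 and 48.3% for EHF, against a median of 58.7%. The grainyhead letters, found in 1.73% of promoters, were in none of these 4 windows. The upstream starts of KLF5 and EHF, not shown, differed from these. That of KLF5 held a TATA box at -194 and a SOX match at -58 but no GC box, at 40.7% GC. That of EHF held none of the motifs, at 51.3% GC. A match of letters is a description of sequence and no evidence of binding.

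NKX2-1, SOX2 and SOX9 were listed at 0 counts in all 9 libraries. NKX2-1 (ENSG00000136352) lies at GRCh38 chromosome 14, 36516392 to 36521149, wholly within the span of the long non-coding gene AL132857.2 on the opposite strand. SOX2 (ENSG00000181449; chromosome 3, 181711924 to 181714436) lies wholly within SOX2-OT on the same strand. SOX9 (ENSG00000125398; chromosome 17, 72121020 to 72126420) lies wholly within SOX9-AS1 on the opposite strand. The enclosing genes had few counts themselves, with 2 in all libraries together for AL132857.2, 102 for SOX2-OT and 27 for SOX9-AS1. For counting error alone, a 0 allows up to 3 counts per library, which is 0.134 to 0.236 CPM.

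These 0 values cannot be read as absence of the transcripts, since genes inside other genes were nearly all at 0 in this table. Of 1438 protein-coding genes that lie wholly inside the GENCODE 29 span of another gene in the table, 1396 (97.1%) were at 0 in all 9 libraries. Of the 18255 other protein-coding genes, 2928 (16%) were at 0. The share was 97.2% of 426 genes enclosed on the same strand only and 96.9% of 983 enclosed on the opposite strand only. All 3 zero members belong to the enclosed class, and each of the 7 members with counts lies outside it. NKX2-1, SOX2 and SOX9 are therefore unmeasured here in every group, and nothing is said below about their response.

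**Figure D1:**
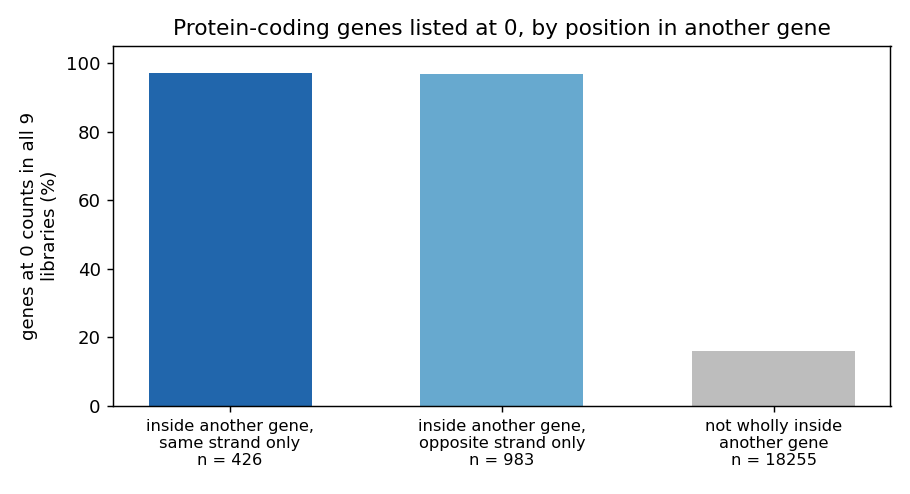
Percentage of protein-coding genes with 0 counts in all 9 libraries (vertical axis), by position relative to other genes. Bars stand at 97.2% for genes wholly inside another gene on the same strand only, 96.9% for the opposite strand only and 16% for genes not wholly inside another gene.

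Partial overlap touched other members. Only 33.9% of the 7191 exonic bases of ELF3 (ENSG00000163435; chromosome 1, 202007945 to 202017188) lie outside the spans of other genes, since AL691482.3 on its strand and ELF3-AS1 on the opposite strand cover the rest. For GATA6 (ENSG00000141448; chromosome 18, 22169443 to 22202528) the share was 46.4%, with 4 opposite-strand genes across it. It was 98.3% for FOXA1, 98.9% for GRHL2 and 100% for KLF5, EHF and FOXA2. The counts of ELF3 and GATA6 may thus come from part of each gene, and how far this lowers them was not tested.

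Within control cells, levels were compared per kilobase of exon outside other genes. EHF was highest at 50.9 ± 1.84 CPM per kb, followed by KLF5 at 45.2 ± 0.991, FOXA1 at 41.8 ± 0.89, ELF3 at 31.1 ± 1.24 and GRHL2 at 23.6 ± 0.386 CPM per kb (SD, n = 3). GATA6 stood at 0.935 ± 0.231 and FOXA2 at 0.130 ± 0.0704 CPM per kb, more than an order of magnitude below the others. The 3 control libraries did not overlap between any neighbours in this order. ELF3 and GRHL2 changed places in G1 cells, where ELF3 had 19.9 ± 0.613 and GRHL2 25.1 ± 0.704 CPM per kb. In G1 and G7 cells, the libraries of KLF5 and FOXA1 overlapped. The place of ELF3 rests on the length used, because over its whole exonic length it had 10.54 ± 0.419 CPM per kb in control cells, below GRHL2 at 23.3 ± 0.381.

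**Figure D2:**
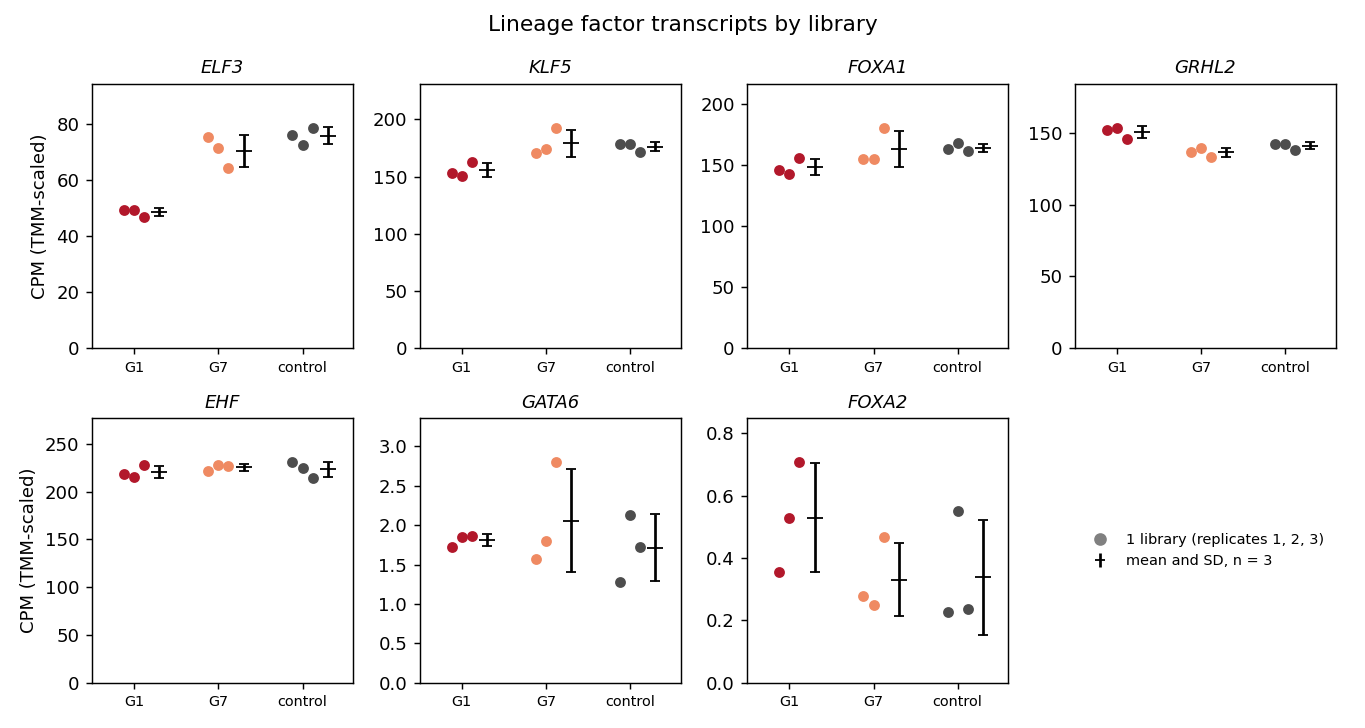
TMM-scaled CPM (vertical axes, each starting at 0) of the 7 lineage factors with counts, in G1, G7 and control cells. Points are libraries, and bars give the mean and SD (n = 3). ELF3 in G1 cells, at 46.8 to 49.4 CPM, sits below every G7 and control library, while EHF overlaps across all 3 groups.

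The G1 hairpin, which left the least CBX5 RNA, was compared with the control hairpin. ELF3 fell most, to 0.640 times its control level, KLF5 fell to 0.884 times and FOXA1 to 0.903 times, and EHF, GATA6 and GRHL2 were not called. Of the 6 tested factors, 3 were lower and 0 higher, in edgeR's quasi-likelihood test at a Benjamini-Hochberg adjusted p under 0.05. Over all 13264 tested genes, 28.7% were called lower, 30.4% higher and 59.1% in either direction. With upper quartile scaling the calls over all genes were 3066 higher and 4815 lower, against 4031 and 3806 with TMM. The median log2 change of the 6 factors was -0.08, against -0.011 over all tested genes. KLF5 and FOXA1, at log2 changes of -0.177 and -0.146, moved by less than the median absolute change of all tested genes, 0.297. The groups did not overlap for 4 of the 6, ELF3, KLF5, FOXA1 and GRHL2, and for 64.1% of all genes.

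ELF3, also called ESE-1, is an ETS factor of differentiating epithelium. It had 49.3, 49.4 and 46.8 CPM in G1 libraries 1 to 3, 75.2, 71.4 and 64.2 in G7 libraries and 76.1, 72.6 and 78.6 in control libraries. All 3 G1 libraries were below all others, while G7 and control libraries overlapped. The log2 fold change with G1 was -0.64 ± 0.060 (SE), at adjusted p = 3.69e-08 in the edgeR test. This exceeded the median absolute change of all tested genes, 0.297 on the log2 scale, and lay under their 90th percentile of 0.898. The call held in each of 16 alternative analyses, at -0.73 to -0.61.

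EHF (ENSG00000135373; chromosome 11, 34621093 to 34661057), or ESE-3, is the other epithelial ETS factor of the set. It had 218, 216 and 228 CPM in G1 libraries, 222, 228 and 227 in G7 libraries and 231, 225 and 215 in control libraries. The groups overlapped, and the log2 change with G1 was -0.02 ± 0.042 (SE) at adjusted p = 0.754 in the edgeR test. With upper quartile scaling it was called lower (-0.10, adjusted p = 0.0344). The more distant ETS relative ELF1 had a log2 change of 0.00 with G1 (adjusted p = 0.982, edgeR), and the epithelial factor ELF5 was under 1 CPM on average in each group.

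KLF5 (ENSG00000102554; chromosome 13, 73054976 to 73077542) had 154, 151 and 163 CPM in G1 libraries, 171, 174 and 193 in G7 libraries and 178, 178 and 172 in control libraries. Every G1 library was below every G7 and control library. The log2 change with G1 was -0.18 ± 0.049 (SE) (adjusted p = 0.0049, edgeR), and the call was made in each of 16 alternatives. Other Krüppel-like factors moved in both directions. KLF4, a factor of terminal differentiation in epithelia, averaged 19.1 ± 0.429 CPM in G1 cells and 29.5 ± 1.01 CPM in control cells, a log2 change of -0.63, and KLF3, a repressor, fell by 0.27 on the log2 scale. KLF6 rose by 0.60, to 24.4 ± 1.45 CPM in G1 cells against 16.04 ± 1.26 CPM in control cells (SD, n = 3 each).

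FOXA1 (ENSG00000129514; chromosome 14, 37589984 to 37596059) had 146, 143 and 155.5 CPM in G1 libraries, 154, 155 and 180.3 in G7 libraries and 163, 168 and 161 in control libraries. The G1 libraries were below the control libraries but overlapped those of G7. The log2 change with G1 was -0.15 ± 0.056 (SE) at adjusted p = 0.0311 in the edgeR test. This call rests on few libraries, since leaving out G1 replicate 1 or 2 or control replicate 1, 2 or 3 ended it (-0.16 to -0.12, adjusted p = 0.05 to 0.126). FOXA2 (ENSG00000125798; chromosome 20, 22581005 to 22585455), its paralog, had 6, 10 and 11 counts in G1 libraries, 6, 4 and 10 in G7 libraries and 3, 8 and 4 in control libraries. It did not pass the filter, and without the filter its log2 change was 0.66 ± 0.49 (SE) with G1 (adjusted p = 0.351, edgeR). FOXA3, another FOXA gene, was also below the filter.

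GATA6 was scarce, with 29, 35 and 29 counts in G1 libraries, 34, 29 and 60 in G7 libraries and 17, 31 and 29 in control libraries. Its log2 change was 0.07 ± 0.254 (SE) with G1 (adjusted p = 0.835, edgeR), the widest error of the 6 tested factors. More abundant GATA genes were GATA3, a factor of several epithelia and of T cells, and GATA2. GATA3 averaged 60.5 ± 3.65 CPM in G1 cells and 88.5 ± 6.54 CPM in control cells (SD, n = 3 each), and it fell by 0.55 on the log2 scale (adjusted p = 5.37e-06, edgeR). For GATA2 the log2 change was 0.05 (adjusted p = 0.43, edgeR), and -0.03 with upper quartile scaling.

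GRHL2 (ENSG00000083307; chromosome 8, 101492432 to 101669726) had 152, 154 and 146 CPM in G1 libraries, 137, 139 and 133 in G7 libraries and 143, 142 and 138.5 in control libraries. The G1 libraries lay above the others, with a log2 change of 0.09 ± 0.042 (SE) against control that missed the threshold (adjusted p = 0.0623, edgeR). It passed without G1 replicate 3 (0.12, adjusted p = 0.0428) or G7 replicate 3 (0.10, 0.0413) and without the filter on low counts (0.12, 0.0437), and with upper quartile scaling it was 0.01 (0.903). Its paralogs rose with G1, GRHL3, a factor of the skin barrier, by 0.85 (adjusted p = 5.88e-06, edgeR) and GRHL1 by 0.175 (0.0172), although with upper quartile scaling GRHL1 was not called (0.09, 0.216). GRHL3 had 13.1 ± 0.671 CPM in G1 cells, 10.6 ± 0.747 in G7 cells and 7.14 ± 1.41 in control cells.

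Cells with hairpin G7 lost less CBX5 RNA and were set against the same control libraries. None of the 6 tested factors was called, at an adjusted p under 0.05 in edgeR, at an unadjusted p under 0.05, or in DESeq2, while edgeR called 22.7% of all genes, 13.1% higher and 9.64% lower (24.7% without G7 replicate 3). No factor had groups that did not overlap, against 35.3% of all genes. The log2 changes were -0.11 ± 0.057 (SE) for ELF3 (adjusted p = 0.181), 0.03 ± 0.049 for KLF5 (0.747), -0.00 ± 0.055 for FOXA1 (0.974), 0.01 ± 0.042 for EHF (0.849), -0.05 ± 0.042 for GRHL2 (0.459) and 0.27 ± 0.240 for GATA6 (0.472). The error of GATA6 was over 4 times that of any other factor, so its change was the least well bounded.

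G7 replicate 3 set part of the G7 values. It was the highest G7 library for KLF5, FOXA1, GATA6 and FOXA2 and the lowest for ELF3 and GRHL2. Without it the log2 changes of KLF5, FOXA1 and ELF3 with G7 were -0.03, -0.08 and -0.04 (adjusted p = 0.715, 0.224 and 0.597, edgeR). That of GATA6 was -0.04 (adjusted p = 0.928, edgeR), and those of EHF and GRHL2 were 0.01 and -0.03 (0.873 and 0.705). Its mitochondrially encoded share was given above, and the part of RNA quality in these values was not tested.

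The hairpins were compared directly, since a call with 1 hairpin and none with the other is no test of their difference. ELF3, KLF5 and FOXA1 were lower and GRHL2 was higher in G1 than in G7 cells, so 4 of 6 tested factors differed. Over all genes 44.9% were called, 23.3% higher and 21.6% lower in G1, and the libraries did not overlap for 53.6%, against 3 of the 6 factors. The log2 difference was -0.53 ± 0.059 (SE) for ELF3 (adjusted p = 8.46e-07) and -0.20 ± 0.049 for KLF5 (0.0023), both in the edgeR test. For GRHL2 it was 0.14 ± 0.041 (adjusted p = 0.00965, edgeR), and 0.08 (0.106) with upper quartile scaling. Without G7 replicate 3 the differences were -0.59 for ELF3 (adjusted p = 1.57e-09, edgeR), -0.15 for KLF5 (0.01) and 0.12 for GRHL2 (0.0258). FOXA1 differed by -0.14 ± 0.055 (adjusted p = 0.0426, edgeR), and this call ended without G7 replicate 3 (-0.06, 0.279) and in 8 of the other 15 alternatives. Of the 4 called factors, only ELF3 exceeded the median absolute difference of all tested genes, 0.208 on the log2 scale. EHF and GATA6 were not called, with log2 differences of -0.03 ± 0.041 and -0.20 ± 0.230 (SE). Without G7 replicate 3 that of EHF was -0.03 and that of GATA6 turned to 0.11 (adjusted p = 0.666 and 0.727, edgeR).

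**Figure D3:**
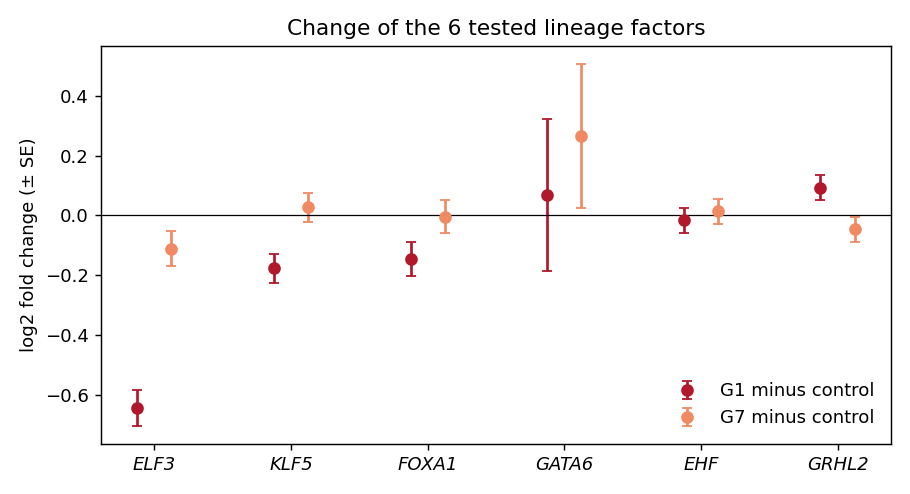
Log2 fold change (vertical axis, with SE bars) of the 6 tested lineage factors for G1 minus control and G7 minus control, both against the same 3 control libraries. ELF3 stands at -0.64 with G1 and -0.11 with G7, and GATA6 has the widest bars.

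The genes most like ELF3 over the 9 libraries, by Pearson correlation of log2 CPM among 9268 named protein-coding genes with a mean of at least 5 CPM, were SLC25A42 (r = 0.994), a mitochondrial carrier of coenzyme A, CPAMD8 (0.993) and TSPAN1 (0.993), a tetraspanin. TSPAN1 averaged 121 CPM in G1 cells, 184 CPM in G7 cells and 201 CPM in control cells. Such likeness was common, with 800 of the genes above 0.9, and the 9 libraries share 3 groups. The other factors spanned under 0.5 on the log2 scale between group means and were not compared in this way.

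Genes of lung and other cell types, and paralogs of the factors, were then counted, in lists drawn up with earlier results of these data known. Whether the factors regulate these genes was not tested. Each count is to be read against the shares of all tested genes. These were 28.7% lower and 30.4% higher in G1 cells, and 9.64% lower and 13.1% higher in G7 cells. Counts of several lists lay near these shares, such as the alveolar type II and mesenchymal lists and the paralogs in G1 cells. Those of the epithelial genes around GRHL2 did so in G7 cells. Some counts given below depend on scaling. With upper quartile scaling, 7 ciliated, 3 alveolar type I, 3 airway basal and 2 pulmonary neuroendocrine genes were lower in G1 cells. With TMM these were 6, 2, 2 and 1. Of 7 tested club and secretory cell genes, 6 were lower and 1 higher in G1 cells (median log2 change -1.15, against -0.011 over all genes), and 4 were lower and 0 higher in G7 cells (median -0.38, against 0.009). Without G7 replicate 3, 5 were lower in G7 cells (median -0.48), CREB3L1 being the one added (-0.61, adjusted p = 0.0145, edgeR). The airway protein BPIFB1 averaged 45.4 ± 1.38 CPM in G1 cells, 111 ± 5.24 in G7 cells and 188 ± 4.21 in control cells. AGR2, a disulphide isomerase of mucus cells, had 98.3 ± 3.12 CPM in G1 cells, 87.0 ± 4.70 in G7 cells and 143 ± 8.23 in control cells (SD, n = 3 each). SPDEF, an ETS factor of goblet cells, had a log2 change of -0.62 with G1 (adjusted p = 1.17e-05, edgeR), and with G7 it was 0.00 (adjusted p = 0.998, edgeR). The secretoglobin SCGB3A2 rose with G1, to 0.831 ± 0.276 CPM against 0.352 ± 0.108 in control cells, on only 86 counts over the 9 libraries.

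Of 11 tested ciliated cell genes, 6 were lower and 1 higher in G1 cells (median -0.47), and 2 lower and 0 higher in G7 cells (median -0.02). DNAH5, a dynein heavy chain of cilia, changed by -0.99 with G1 and -0.585 with G7, and CCNO, which acts in building many cilia, by -0.72 and -0.45. CCNO was not called with G7 without G7 replicate 3 (-0.34, adjusted p = 0.0623, edgeR), which left 1 gene lower. The ciliogenesis factor FOXJ1 had 1.59 ± 0.372 CPM in G1 cells, 2.55 ± 0.520 in G7 cells and 2.33 ± 0.365 in control cells. Its fall with G1 was called at adjusted p = 0.0405 in the edgeR test.

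Alveolar genes were split. Of 16 alveolar type II cell genes only 8 passed the filter, of which 3 were higher and 3 lower in G1 cells (median -0.06), and 2 higher and 0 lower in G7 cells (median 0.10). LPCAT1, a phospholipid enzyme of surfactant synthesis, rose by 0.82 with G1 and 0.16 with G7. CTSH, a protease that processes surfactant protein, fell by 0.44 with G1 and had a log2 change of 0.12 with G7 (adjusted p = 0.0501, edgeR). SFTPB, a direct NKX2-1 target, was near the detection limit at 0.123 ± 0.116 CPM in G1 cells, 0.605 ± 0.124 in G7 cells and 0.825 ± 0.268 in control cells. On 77 counts over the 9 libraries, it was called lower with G1 (log2 change -2.72 ± 0.521 SE, adjusted p = 0.000199, edgeR). With G7 it was not called (-0.44, adjusted p = 0.401, edgeR). SFTPA1, SFTPA2 and SFTPC were below the filter, and SFTPD and NAPSA at 0. NAPSA lies wholly inside the gene NR1H2, so its 0 has the same limit as that of NKX2-1, whereas all SFTPD exons are outside other genes. Of 5 tested alveolar type I cell genes, 2 were higher and 2 lower in G1 cells (median -0.08) and edgeR and DESeq2 called 0 in G7 cells, with 1, HOPX, at an unadjusted p under 0.05 in edgeR. CAV1 rose by 0.60 and HOPX fell by 1.01 with G1.

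**Figure D4:**
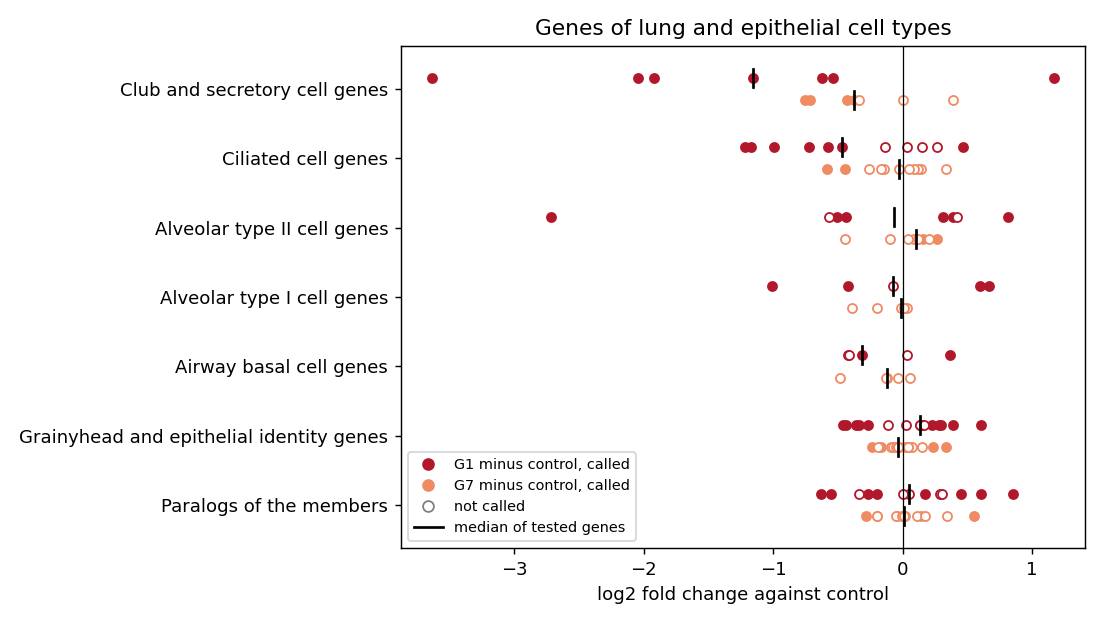
Log2 fold change against control (horizontal axis) of each tested gene in 7 lists, for G1 (upper points of each row) and G7 (lower points). Filled points were called, open points were not, and black bars mark the median, which for club and secretory cell genes is -1.15 with G1 and -0.38 with G7.

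Epithelial genes around GRHL2 moved both ways. Of 16 tested, 7 were higher and 5 lower in G1 cells (median 0.13), and 2 higher and 2 lower in G7 cells (median -0.03). With upper quartile scaling the G1 counts were 5 higher and 6 lower (median 0.05). Without G7 replicate 3 the G7 counts were 3 higher and 2 lower (median 0.01), with CLDN4, a claudin, added (0.24, adjusted p = 0.0017, edgeR). CDH1, which encodes E-cadherin, rose by 0.13 with G1 but was not called with that scaling (0.05, adjusted p = 0.313, edgeR), and it had a log2 change of -0.03 with G7 (adjusted p = 0.657, edgeR). The protease gene ST14 rose by 0.605 with G1 and 0.24 with G7, and the splicing factor gene ESRP1 fell by 0.44 and 0.23. ESRP1 averaged 318 ± 4.93 CPM in G1 cells, 367 ± 10.1 in G7 cells and 431 ± 5.31 in control cells. Of 9 mesenchymal genes 4 were tested, with 1 higher and 1 lower in G1 cells and 0 higher and 1 lower in G7 cells (1 higher, TWIST2, and 1 lower without G7 replicate 3). SNAI1 rose by 0.56 with G1 and FN1 fell by 0.49. ZEB1, which GRHL2 represses in other epithelial cells, averaged 0.0593 CPM in G1 cells, 0.0361 in G7 cells and 0.224 in control cells and was not tested. It had 15 counts over the 9 libraries, and these means lie near or below the 0.134 to 0.236 CPM that a 0 allows. No direction can be read from them.

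Among markers of other lineages, 5 of 10 airway basal cell genes were tested. Of these, 1 was higher and 2 lower in G1 cells and edgeR and DESeq2 called 0 in G7 cells (2 at an unadjusted p under 0.05 in edgeR, and 1 with no adjusted p in DESeq2). KRT15, a keratin, averaged 75.4 ± 0.812 CPM in G1 cells, 91.3 ± 3.16 in G7 cells and 93.3 ± 7.21 in control cells, and it fell by 0.31 on the log2 scale with G1. The integrin genes moved in opposite directions with G1, ITGA6 rising by 0.37 and ITGB4 falling by 0.42. TP63, the basal cell factor, was scarce, with 1.84 ± 0.323 CPM in G1 cells, 1.73 ± 0.150 in G7 cells and 2.41 ± 0.492 in control cells. Of 9 genes in the pulmonary neuroendocrine list 2 were tested, and POU2F3, known from tuft cells, fell by 0.66 with G1. Neither edgeR, also at an unadjusted p under 0.05, nor DESeq2, which gave no adjusted p for 1 of them, called any with G7. Of 12 gastric, intestinal and hepatic genes 1 was tested, VIL1, at 0.156 ± 0.0370 CPM in G1 cells, 1.19 ± 0.178 in G7 cells and 1.68 ± 0.0777 in control cells. It was called lower with G1 and not with G7 (unadjusted p = 0.0418, adjusted p = 0.127, edgeR), where DESeq2 gave it no adjusted p. VIL1 had 154 counts over the 9 libraries, and its G1 mean lies within the 0.155 to 0.182 CPM that a 0 allows there. Of 17 paralogs of the factors 13 were tested, with 4 higher and 4 lower in G1 cells (median 0.05) and 1 higher and 2 lower in G7 cells (median 0.01). With upper quartile scaling they were 2 higher and 4 lower (median -0.03) in G1 cells and 1 higher and 3 lower (median -0.02) in G7 cells. GATA3 was called with G7 without G7 replicate 3 (-0.30, adjusted p = 0.000527, edgeR), which made 3 lower (median -0.00). The epithelial markers EPCAM, CDH1, KRT8, KRT18, KRT19 and CLDN4 summed to 12880 to 13080 CPM in G1 libraries, 10630 to 11340 in G7 libraries and 8910 to 9772 in control libraries. Keratins made most of this sum, with 799476 counts for KRT8, 496201 for KRT18 and 296136 for KRT19 over the 9 libraries. The counts were 55824 for CDH1, 50145 for EPCAM and 33382 for CLDN4. The cells are thus epithelial by these markers, while the surfactant genes SFTPB and SFTPC averaged under 1 CPM in each group, and NKX2-1 and NAPSA, enclosed in other genes, cannot be used for this check.

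The 12 fibroblast, endothelial and leukocyte markers summed to 89.9 to 95.7 CPM in G1 libraries, 107 to 112 in G7 libraries and 105.2 to 113.5 in control libraries. PECAM1 made most of it, at 55.7 ± 2.13 CPM in G1 cells, 73.4 ± 2.99 in G7 cells and 73.4 ± 5.27 in control cells. Of the 4 tested, 1 was higher and 2 lower in G1 cells, and 0 in G7 cells were called by edgeR, also at an unadjusted p under 0.05, or by DESeq2. LUM was at 0 in every library, as was CD68, whose span is fully covered by other genes, and DCN and COL3A1 averaged under 0.05 CPM. The part of these markers in the lower ELF3, KLF5 and FOXA1 of G1 cells was not tested.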

How the data were processed

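Polyadenylated RNA of HCC827 cells was measured in 3 libraries each with hairpin G1, hairpin G7 and a control hairpin. The authors deposited raw read counts per Ensembl gene, and TopHat2 2.1.0, HTSeq 0.6.0 and genome build hg38 (GRCh38) are named by the submitters' processing notes. Per the labels' protocols the libraries were strand-specific. No annotation or counting mode is given in the sources used here. Symbols, coordinates and exon lengths are from GENCODE 29, which matched 57055 of 60675 rows.

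Counts were fitted with edgeR 4.0.16 in R 4.3.3 (filterByExpr, TMM, quasi-likelihood test, two-sided, all 9 libraries, Benjamini-Hochberg over 13264 genes). This test gave the adjusted p-values. On simulated counts, with 50 changed genes per fold among 13109, it found 74% of genes with a 1.5-fold change between G1 and control, and 100% with a 4-fold change. At 1.25-fold, the smallest change simulated, it found 56% for G1 and 52% for G7. The changes of KLF5 and FOXA1 with G1 were smaller than this. In the real data 59.1% of genes were called with G1, so these shares need not hold there. The shares were also not split by expression level, which differed widely between the tested factors. Replicates of each group differed by more than sampling noise and were kept as 9 samples. Intervals and floors cover counting error only.

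The members and 11 further gene lists were chosen with earlier results of these data known. Named were the members, CBX5, defining markers, up to 4 genes per list with the smallest p-values, and the 3 genes most like a member that spanned at least 0.5 on the log2 scale between groups, with a mean of at least 5 CPM. SCGB3A2, SPDEF, FOXJ1, SFTPA1, SFTPA2, SFTPD, ZEB1, GATA2, KLF3, GRHL1, FOXA3, ELF1 and ELF5 were named outside this rule after their values were seen. The alternatives were RLE and upper quartile scaling, DESeq2 1.42.0, no filter, only the 2 groups compared, leaving out each library, a replicate block and leaving out mitochondrially encoded genes. The lists without G7 replicate 3 were added after seeing the data. CREB3L1 was also named then.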

Additional observations from a re-analysis of the deposited data

How the results depend on the processing

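In 16 alternatives the counts of all genes called, and of lineage factors called, were within 1.5 times those reported for each of the 3 comparisons. With each library left out in turn, 2 to 4 factors were called for G1 against control, 0 for G7 against control and 3 to 4 for G1 against G7. ELF3 and KLF5 kept direction and call in every alternative for G1 against control and G1 against G7, at -0.26 to -0.15 for KLF5 with G1 against control. Among the alternative values of single factors, 15 lost a call, 4 gained one and 269 did neither. The exceptions are EHF, FOXA1 and GRHL2, given above. The cause of the lost calls was not tested. With upper quartile scaling the calls over all genes were 1398 higher and 1603 lower for G7 against control, against 1735 and 1279 with TMM, and 2346 higher and 3751 lower for G1 against G7, against 3092 and 2870.

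Replicate numbers were not treated as pairs. Deviations of same-numbered libraries from their group means correlated at 0.032 to 0.199 between G1 and G7, and at -0.076 to 0.053 between either hairpin and control. With 3 libraries per group, these values cannot decide whether replicates were paired. With a replicate block 7909 genes were called for G1 against control, 3117 for G7 against control and 6069 for G1 against G7, and 3, 0 and 4 of the factors. Without G7 replicate 3, chosen for the lists after seeing the data, the other lists had the same number of calls with G7. Depth limits GATA6 and FOXA2, at 17 to 60 and 3 to 11 counts per library.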
